A study of Mus musculus with 6 samples.

Results

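Solute carriers are the large group of membrane proteins that move ions, nutrients, metals and metabolites across the plasma membrane and the membranes of organelles, and mouse genes of the group carry symbols that start with Slc and a family number. RNA sequencing in 3 mesenchymal cell populations of mouse skin listed 379 such symbols, and 241 of them, called members here, reached at least 1 RPKM (reads per kilobase of transcript, scaled to library size) in at least 2 of 6 libraries. The members were therefore chosen by their measured RPKM, and 171 of the 241 were at 1 RPKM or more in all 6 libraries. A further 14 passed through the dermal papilla libraries alone, 3 through dermal sheath alone and 2 through dermal fibroblasts alone. Those 19 had to be highest in that population, so the direction of any call against the others is fixed by the choice of members. These 19 stay in the counts below, and their number is given for the counts over all members in each comparison. The other 138 symbols did not pass, of which 24 were listed at 0 in every library.

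The populations were dermal sheath cells (DS), which line the outside of the hair follicle, dermal papilla cells (DP), the mesenchymal cluster enclosed by the follicle bulb, and dermal fibroblasts (DF). Dorsal skin of female CD1 mice was taken on postnatal day 16, in early catagen, when the lower part of the follicle starts to regress. Each population was isolated by cell sorting in 2 biological replicates, and its RNA was amplified before libraries were made. No transgene or treatment is named for any group, and the sources used here do not give the sort markers. DS markers were called higher in DS for 7 of 7 genes against either other population, DP markers were called higher in DP than in DF for 8 of 8 genes and than in DS for 7 of 8 (Corin was higher in DS), and DF markers were called lower in DS than in DF for 6 of 7 genes, with Pdgfra higher in DS, and lower in DP than in DF for 5 of 7, with Dpp4 higher in DP.

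Solute carriers work as uniporters, symporters or exchangers, and many draw on the sodium gradient that the sodium pump keeps up. In connective tissue cells they are known to bring in amino acids, sulfate, sugars and vitamin C for matrix synthesis, to hold cell volume with chloride, taurine and inositol, and to set the level of iron, zinc and calcium. Mitochondrial carriers form the largest family, and a few symbols of the group name scaffolds, overlapping genes or pseudogenes instead of transporters.

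The libraries differ in scale, and this touches every count below. Over the 14664 genes that passed the same filter, the median log2 difference was 0.53 (DS minus DF), 0.71 (DP minus DF) and -0.17 (DS minus DP). Counts are therefore given on the deposited scale and again after median-ratio scaling, which divides each library by its median ratio to the average library. Summed RPKM ran between 1176256 and 2187559 per library, and the number of reads behind the values is unknown. Replicate libraries correlated across the 241 members with a Pearson r of 0.961 in DS, 0.961 in DP and 0.972 in DF, as a description of these libraries.

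Markers of other skin cells were present, and their part in the results was not tested. The summed RPKM of 6 keratinocyte markers was 47.8 and 150.5 in DS, 98.2 and 100.4 in DP, and 48.9 and 50.2 in DF, and 4 of the 6 were called higher in DP than in DF (1 of them after median-ratio scaling). The 6 leukocyte markers summed to 5.15 and 2.35 in DS, 6.67 and 6.80 in DP, and 24.3 and 32.9 in DF. The 5 melanocyte markers summed to 2.89 and 4.82 in DS, 7.59 and 5.32 in DP, and 15.4 and 29.4 in DF. The 5 pericyte markers summed to 123.5 and 103.8 in DS, 30.7 and 18.4 in DP, and 15.1 and 16.7 in DF. Most of the DS sum was Mcam, called higher in DS than in DF and DP, at 110 and 100.7 RPKM in DS, 1.09 and 0.878 RPKM in DP, and 0.759 and 1.12 RPKM in DF, while Kcnj8 and Abcc9 were called lower in DS than in DF and Rgs5 was called higher in DP than in DF. The 5 endothelial markers summed to 16.7 and 5.79 in DS, 20.9 and 7.90 in DP, and 4.54 and 5.83 in DF, with Kdr called higher in DP than in DF. Of 5 erythroid markers, only 3 had values. These 3, with no call, summed to 39.4 and 37.7 in DS, 42.3 and 129.2 in DP, and 7.72 and 53.0 in DF, and no adipocyte or Schwann marker was called. In bulk RNA, fewer cells of a type and less RNA per cell cannot be told apart.

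Taken as levels, the members made up 0.697% and 0.701% of the summed RPKM in DS, 0.799% and 0.777% in DP, and 0.494% and 0.490% in DF, with the microRNA gene Mir6236 left out of the sum because it held between 46.6% and 77.1% of each library. The median member stood at a mean of 6.43 RPKM in DS, 9.29 RPKM in DP and 5.26 RPKM in DF. The mean was highest in DS for 68 members, in DP for 128 and in DF for 45. Levels of at least 100 RPKM were reached by 4 members in DS, 6 in DP and 0 in DF. A single gene, the taurine transporter Slc6a6, accounted for 25.2% of the members' summed RPKM in DS.

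The comparison of the sheath with the surrounding fibroblasts asks which transporters set the follicle's outer mesenchymal layer apart. A gene was called when its adjusted p, from limma across all 14664 genes, was under 0.05 and its absolute log2 difference was at least 1 on the log2(RPKM + 1) scale. In DS against DF, 30 of 241 members (12.4%) were called higher, beside 20.6% of all genes tested, and 24 (9.96%) were called lower, beside 5.95% of all genes. After median-ratio scaling the counts were 14 higher, beside 8.01% of all genes, and 38 lower, beside 9.93%. All 14 were also called on the deposited scale, as were 24 of the 38. Members that passed through 1 population alone made up 1 of the 30 and 2 of the 24.

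In DP against DF, 73 members (30.3%) were called higher, beside 31.5% of all genes, and 16 (6.64%) were called lower, beside 6.87%. Both shares were close to those of the whole table, and 4 of 6 keratinocyte markers were among the genes called higher in DP. Members that passed through 1 population alone made up 9 of the 73 and 2 of the 16. Median-ratio scaling gave 27 higher, beside 9.33% of all genes, and 46 lower, beside 13.0%. In DS against DP, 16 members (6.64%) were called higher, beside 9.42% of all genes, and 43 (17.8%) were called lower, beside 12.8%, and with median-ratio scaling these were 25, beside 11.5%, and 34, beside 9.81%. Of the 16 and the 43, 1 and 7 passed through 1 population alone. The members' median log2 difference was 0.32 (DS minus DF), 0.58 (DP minus DF) and -0.28 (DS minus DP). After median-ratio scaling it was -0.14 (DS minus DF), -0.07 (DP minus DF) and -0.11 (DS minus DP). No called member had overlapping libraries between the populations compared, while 179 of 241 members (74.3%) did not overlap between DS and DF, beside 75.0% of all genes, 200 (83.0%) between DP and DF, beside 81.8%, and 181 (75.1%) between DS and DP, beside 71.8%.

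**Figure D1:**
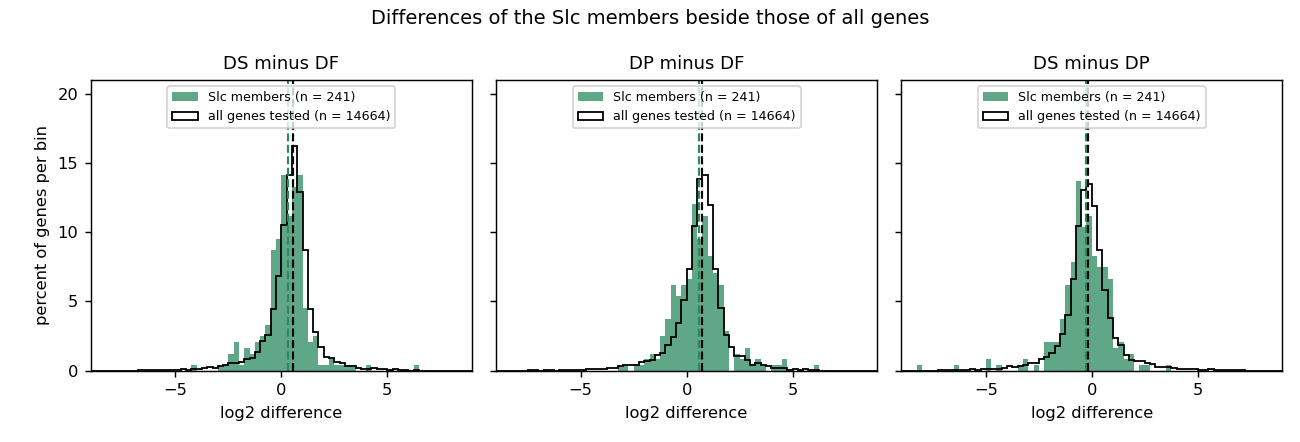
Histograms of the log2 difference on the log2(RPKM + 1) scale, in percent of genes per bin of 0.25, for the 241 Slc members (filled) and for all 14664 genes tested (outline), with dashed lines at the medians. The members' median lies below that of all genes in each of the 3 comparisons, at 0.32 against 0.53 (DS minus DF), 0.58 against 0.71 (DP minus DF) and -0.28 against -0.17 (DS minus DP).

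Members called higher in 1 population than in both others numbered 9 for DS, beside 6.03% of all genes, 35 for DP, beside 10.1%, and 10 for DF, beside 3.41%. After median-ratio scaling the numbers were 7 for DS, beside 4.76% of all genes, 21 for DP, beside 5.71%, and 22 for DF, beside 6.23%. Of these, 6 in DS, 21 in DP and 10 in DF were called so under both scalings. Each such gene is set apart by 2 comparisons that share libraries, so these are descriptions of the pattern and not 2 separate tests. On the deposited scale these members include some that passed through the population concerned alone, which fixed their direction. They are Slc24a1 for DS, Slc6a7 and Slc6a2 for DF, and for DP at least Slc4a8, Slc30a2 and Slc2a3.

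**Figure D2:**
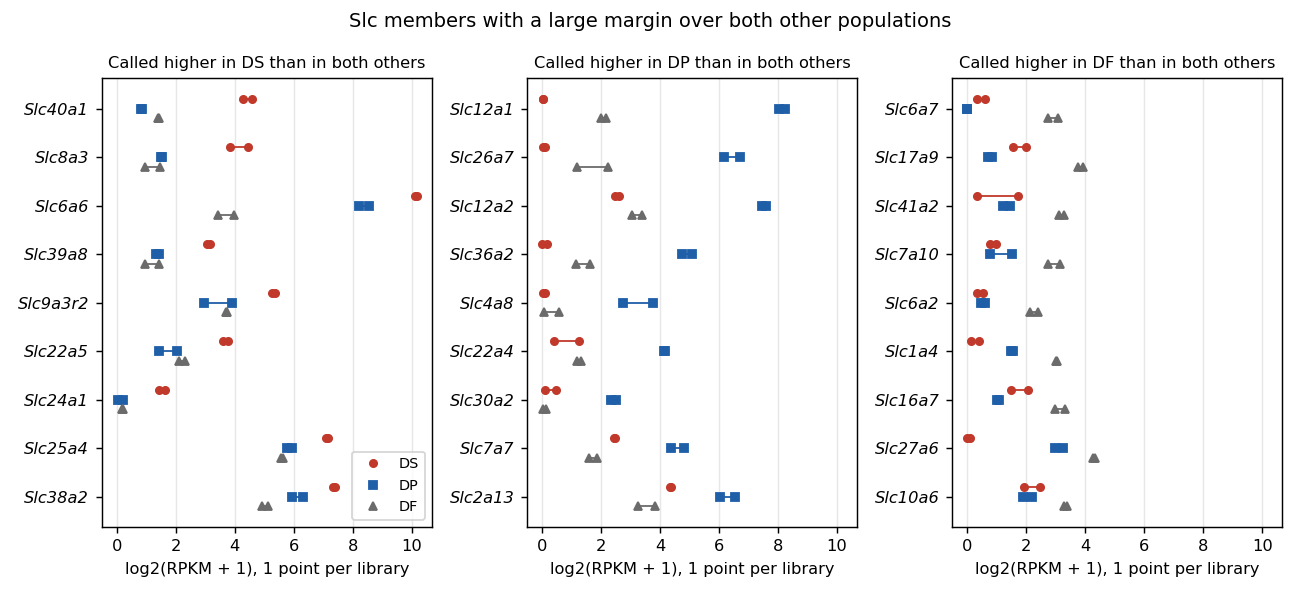
log2(RPKM + 1) in each library (1 point per library, joined within a population) for 9 members with a large margin over both other populations in DS (left), DP (middle) and DF (right). Slc12a1 stands at 298 and 261 RPKM in DP, with 0.0218 and 0.0367 RPKM in DS and 2.97 and 3.49 RPKM in DF. Among the genes drawn, Slc24a1 passed through DS alone, Slc4a8 and Slc30a2 through DP alone, and Slc6a7 and Slc6a2 through DF alone.

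Promoter sequences are given for 5 members that were called between populations. They are examples, and not the 5 members with the largest differences. Slc12a1 had the largest difference of any member, Slc27a3 and Slc5a3 were high in both follicle populations and low in DF, and Slc22a4 and Slc22a5, of 1 family and both on chromosome 11, were called in opposite directions. The sequences are RefSeq promoters on GRCm38.p6, from 250 bases before to 50 after the start, written 5′ to 3′ on the gene's strand, and CpG pairs (the letters CG, which read the same on both strands) are in capitals.
Slc12a1: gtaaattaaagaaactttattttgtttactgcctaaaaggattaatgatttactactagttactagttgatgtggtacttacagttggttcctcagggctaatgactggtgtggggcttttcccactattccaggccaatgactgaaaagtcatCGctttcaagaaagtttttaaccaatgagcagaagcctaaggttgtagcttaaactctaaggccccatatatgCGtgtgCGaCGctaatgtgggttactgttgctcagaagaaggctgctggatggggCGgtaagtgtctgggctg
Slc27a3: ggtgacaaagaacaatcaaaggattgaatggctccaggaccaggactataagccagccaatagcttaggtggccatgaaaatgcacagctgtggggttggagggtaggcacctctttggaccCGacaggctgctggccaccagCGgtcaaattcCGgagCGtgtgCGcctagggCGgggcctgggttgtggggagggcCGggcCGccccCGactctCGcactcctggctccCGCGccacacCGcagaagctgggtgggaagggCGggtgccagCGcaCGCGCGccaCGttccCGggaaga
Slc5a3: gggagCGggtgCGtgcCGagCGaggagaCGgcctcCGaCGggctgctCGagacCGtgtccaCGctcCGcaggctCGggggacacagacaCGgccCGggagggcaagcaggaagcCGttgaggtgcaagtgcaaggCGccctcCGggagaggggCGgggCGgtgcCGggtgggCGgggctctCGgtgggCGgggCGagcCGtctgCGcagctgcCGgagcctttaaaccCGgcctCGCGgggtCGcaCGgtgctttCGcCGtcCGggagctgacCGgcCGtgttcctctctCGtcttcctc
Slc22a4: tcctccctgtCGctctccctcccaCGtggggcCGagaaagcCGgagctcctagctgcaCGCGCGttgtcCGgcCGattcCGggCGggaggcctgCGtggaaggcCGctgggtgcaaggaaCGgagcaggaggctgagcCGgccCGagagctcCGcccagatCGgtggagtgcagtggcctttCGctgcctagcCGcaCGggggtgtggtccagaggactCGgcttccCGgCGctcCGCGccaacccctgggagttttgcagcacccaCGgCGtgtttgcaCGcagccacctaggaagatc
Slc22a5: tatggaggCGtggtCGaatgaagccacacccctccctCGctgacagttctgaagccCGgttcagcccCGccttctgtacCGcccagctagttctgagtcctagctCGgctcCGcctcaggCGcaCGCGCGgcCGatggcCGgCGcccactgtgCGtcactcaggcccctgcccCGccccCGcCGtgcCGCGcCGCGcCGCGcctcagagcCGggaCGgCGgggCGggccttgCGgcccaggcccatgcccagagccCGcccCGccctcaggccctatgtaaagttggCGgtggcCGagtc
Slc12a1 lies at chr2:125152350-125152649 on the plus strand, Slc27a3 at chr3:90389889-90390188 on the minus strand and Slc5a3 at chr16:92058072-92058371 on the plus strand. Slc22a4 lies at chr11:54028055-54028354 and Slc22a5 at chr11:53891654-53891953, both on the minus strand. The Slc12a1 window held 5 CpG pairs, and 12.4% of promoters of tested genes held fewer. The window of Slc27a3 held 20 pairs, that of Slc22a4 29, that of Slc22a5 34 and that of Slc5a3 38, and 91.0% of promoters of tested genes held fewer than the last of these. Promoters were found for 185 of the 241 members, and some genes have more than 1. The median was 16 CpG pairs over the 247 promoters of members, beside 19 over 14232 promoters of tested genes.

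The highest mean level of any member in DS, and also in DP, belonged to a carrier of an organic osmolyte. Slc6a6, which brings taurine into cells with sodium and chloride, stood at 1097 and 1154 RPKM in DS, 371 and 293 RPKM in DP, and 9.81 and 14.6 RPKM in DF. No libraries overlapped between populations. The log2 difference was 6.44 (SE 0.22, adjusted p = 7.58e-05) for DS minus DF and 4.67 (SE 0.22, adjusted p = 0.000152) for DP minus DF. Between the follicle populations it was 1.77 for DS minus DP (SE 0.22, adjusted p = 0.00272). Slc5a3, the sodium and myo-inositol cotransporter, had 42.4 and 43.8 RPKM in DS, 28.3 and 22.5 RPKM in DP, and 1.41 and 1.69 RPKM in DF. It was called higher in DS than in DF by 4.12 (SE 0.19, adjusted p = 0.000126) and higher in DP than in DF by 3.37 (SE 0.19, adjusted p = 0.000235) on the log2 scale, while the 0.75 between DS and DP (SE 0.19, adjusted p = 0.0304) was under the fold minimum. Slc2a13, which carries myo-inositol with protons, was instead highest in DP, at 19.5 and 19.2 RPKM in DS, 91.3 and 64.5 RPKM in DP, and 8.44 and 13.1 RPKM in DF. Its log2 difference was 2.75 for DP minus DF (SE 0.26, adjusted p = 0.000975) and -1.93 for DS minus DP (SE 0.26, adjusted p = 0.00398), with no call between DS and DF at 0.82.

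Of the 10 members that carry neurotransmitters, creatine, taurine or betaine, 1 was called higher and 2 lower in DS than in DF, beside 20.6% and 5.95% of all genes. In DP, 4 were called higher and 2 lower than in DF, beside 31.5% and 6.87% of all genes. The 4 were 2 after median-ratio scaling, beside 9.33% of all genes, and 2 without a filter on low values. Of the 4, 1 passed through DP alone. The lower genes were Slc17a9 and Slc6a2 in both comparisons, which share the DF libraries. Slc17a9, which loads nucleotides into vesicles, had 1.9 and 2.93 RPKM in DS, 0.809 and 0.627 RPKM in DP, and 12.4 and 14 RPKM in DF. For Slc17a9 the log2 difference was -2.07 for DS minus DF (SE 0.23, adjusted p = 0.00196) and -3.05 for DP minus DF (SE 0.23, adjusted p = 0.000497). Slc6a2, the noradrenaline transporter, passed the filter through DF alone, which fixed its direction, at 0.456 and 0.256 RPKM in DS, 0.515 and 0.372 RPKM in DP, and 3.33 and 4.26 RPKM in DF.

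Several chloride and bicarbonate carriers were highest in the papilla. Of 23 members that carry protons, bicarbonate or chloride, 14 (60.9%, beside 31.5% of all genes) were called higher and 1 lower (beside 6.87%) in DP than in DF. In DS, 5 (21.7%, beside 20.6%) were called higher and 2 lower (beside 5.95%) than in DF. Between DS and DP, 1 was higher (beside 9.42%) and 8 (34.8%, beside 12.8%) lower in DS. After median-ratio scaling, 7 were higher and 3 lower in DP than in DF, beside 9.33% and 13.0% of all genes. By that scaling 3 were higher and 3 lower in DS than in DF, beside 8.01% and 9.93%. For DS against DP these were 3 higher and 7 lower, beside 11.5% and 9.81%. Of the 14, 4 passed through DP alone, as did 3 of the 8 lower in DS than in DP. The class median for DP minus DF was 1.18 on the log2 scale, beside 0.71 for all genes, and 0.57 after median-ratio scaling.

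Slc12a1, the sodium, potassium and chloride cotransporter best known from the kidney, was at 0.0218 and 0.0367 RPKM in DS, 298 and 261 RPKM in DP, and 2.97 and 3.49 RPKM in DF. The log2 difference was 6.05 for DP minus DF (SE 0.18, adjusted p = 6.51e-05), -8.09 for DS minus DP (SE 0.18, adjusted p = 3.13e-05) and -2.04 for DS minus DF (SE 0.18, adjusted p = 0.000915). Slc12a2, the widely expressed cotransporter of the same ions, showed the same order between DP and the rest, with 4.5 and 5.13 RPKM in DS, 190 and 173 RPKM in DP, and 7.38 and 9.47 RPKM in DF. It was higher in DP than in DF by 4.28 (SE 0.18, adjusted p = 0.000117), and DS minus DP was -4.97 (SE 0.18, adjusted p = 6.29e-05). Slc26a7, an anion exchanger and chloride channel, was counted among the 12 carriers of phosphate, sulfate and other anions, and not in the class above. It had 0.0771 and 0.0161 RPKM in DS, 71.4 and 104 RPKM in DP, and 1.25 and 3.68 RPKM in DF. For Slc26a7 the log2 difference was 4.75 for DP minus DF (SE 0.40, adjusted p = 0.000624) and -6.38 for DS minus DP (SE 0.40, adjusted p = 0.000261). Its lower level in DS than in DF, -1.63 (adjusted p = 0.0219), lost its call without either DS library or without DF replicate 2, at adjusted p between 0.0512 and 0.0880.

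Slc4a7, a sodium and bicarbonate cotransporter that moves base into the cell, had 5.1 and 5.63 RPKM in DS, 23.7 and 20.2 RPKM in DP, and 4.66 and 8.05 RPKM in DF. It was called lower in DS than in DP, at -1.85 (SE 0.27, adjusted p = 0.00509), and higher in DP than in DF, at 1.68 (SE 0.27, adjusted p = 0.00472), but after median-ratio scaling the difference between DP and DF was 0.91 and was no longer called. Slc4a8, a sodium-driven exchanger of chloride and bicarbonate, passed through DP alone, at 0.0670 and 0.0353 RPKM in DS, 5.72 and 12.6 RPKM in DP, and 0.0417 and 0.485 RPKM in DF. Slc4a3, an exchanger of chloride and bicarbonate, was shared by both follicle populations, with 17.8 and 18.5 RPKM in DS, 19.3 and 16.4 RPKM in DP, and 1.23 and 3.73 RPKM in DF. For Slc4a3 the log2 difference was 2.56 for DS minus DF (SE 0.37, adjusted p = 0.00428) and 2.53 for DP minus DF (SE 0.37, adjusted p = 0.00351).

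The electrogenic sodium and bicarbonate cotransporter Slc4a4 was low in DS alone. It had 0.886 and 4 RPKM in DS, 17.5 and 18.5 RPKM in DP, and 17.9 and 19.4 RPKM in DF, and the log2 difference was -2.67 for DS minus DF (SE 0.45, adjusted p = 0.00718) and -2.63 for DS minus DP (SE 0.45, adjusted p = 0.00898). Without either DP library the adjusted p of the second was up to 0.0577.

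Subunits of the sodium pump, which keeps up the gradient that these carriers use, were read from a list of 13 genes, 11 of them tested. Of the 11, 3 were called higher and 1 lower in DS than in DF, beside 20.6% and 5.95% of all genes. In DP 4 were called higher and 1 lower than in DF, beside 31.5% and 6.87%. Between DS and DP 2 were higher and 3 lower in DS, beside 9.42% and 12.8%. After median-ratio scaling these were 2 and 2, 3 and 2, and 3 and 2, beside 8.01% and 9.93%, 9.33% and 13.0%, and 11.5% and 9.81%. The regulatory subunit Fxyd5 stood at 104 and 96.4 RPKM in DS, 781 and 662 RPKM in DP, and 21.7 and 24.1 RPKM in DF. Another regulatory subunit, Fxyd6, stood at 144 and 164 RPKM in DS, 4.44 and 4.1 RPKM in DP, and 4.23 and 6.4 RPKM in DF.

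**Figure D3:**
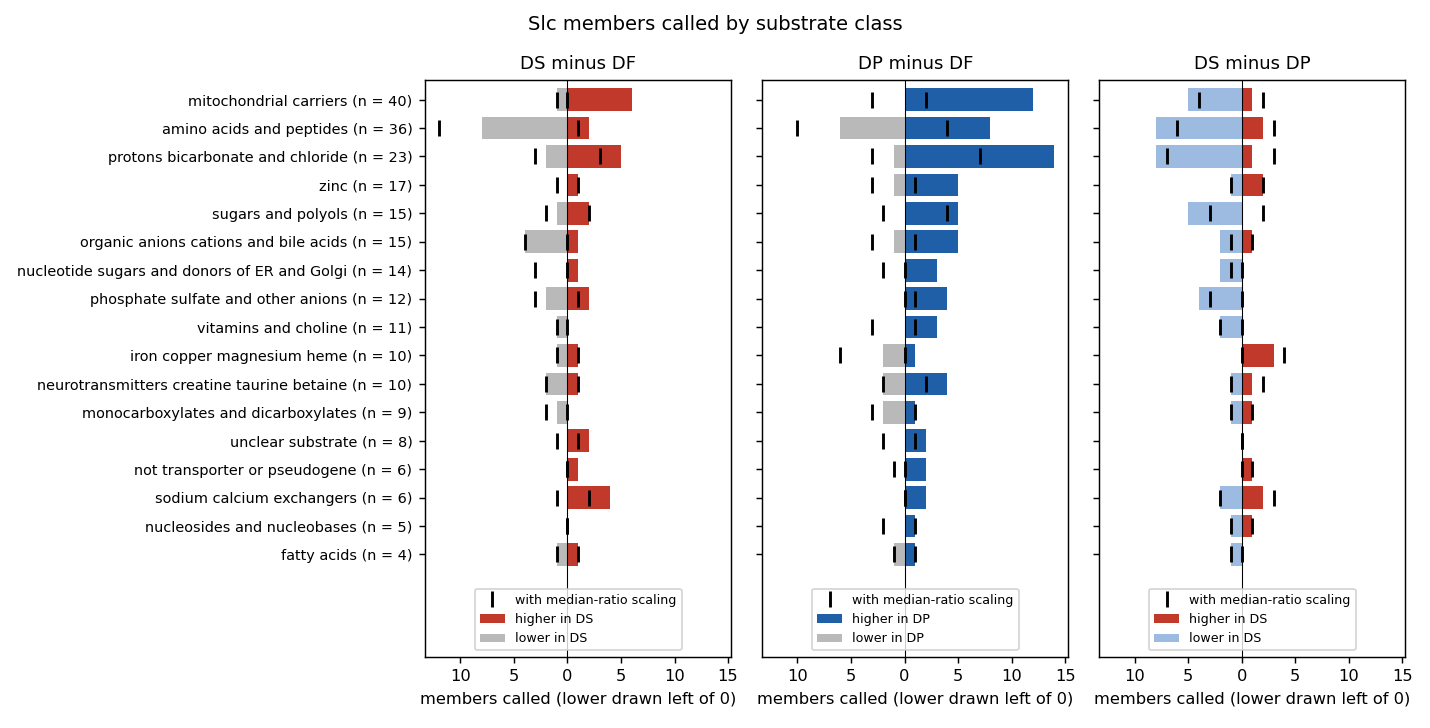
Number of Slc members called higher (right of 0) or lower (left of 0) in each substrate class and each comparison, with ticks at the counts after median-ratio scaling. Of the 23 carriers of protons, bicarbonate and chloride, 14 were called higher in DP than in DF on the deposited scale and 7 after median-ratio scaling, while for 40 mitochondrial carriers these were 12 and 2. Of all genes, 31.5% and 9.33% were so called.

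Amino acid carriers split between the populations gene by gene. Of 36 members, 2 (5.56%, beside 20.6% of all genes) were called higher and 8 (22.2%, beside 5.95%) lower in DS than in DF. In DP, 8 (22.2%, beside 31.5%) were higher and 6 (16.7%, beside 6.87%) lower than in DF. Between DS and DP, 2 (5.56%, beside 9.42%) were higher and 8 (22.2%, beside 12.8%) lower in DS. With median-ratio scaling, 1 was higher and 12 lower in DS than in DF, beside 8.01% and 9.93% of all genes. By the same scaling 4 were higher and 10 lower in DP than in DF, beside 9.33% and 13.0%. For DS against DP these were 3 and 6, beside 11.5% and 9.81%. Slc6a7, which passed through DF alone, is 1 of the lower genes in DS and in DP, and 1 of the 8 higher in DP than in DF passed through DP alone. The class median for DS minus DF was -0.07, beside 0.53 for all genes.

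Slc38a2, a sodium-coupled carrier of small neutral amino acids, was the second most abundant member in DS, at 158 and 169 RPKM in DS, 78.6 and 59.8 RPKM in DP, and 29.3 and 33.8 RPKM in DF. It was called higher in DS than in DF, at 2.34 (SE 0.18, adjusted p = 0.000558), and higher in DS than in DP, at 1.24 (SE 0.18, adjusted p = 0.00451). Its 1.10 for DP minus DF (SE 0.18, adjusted p = 0.00463) was 0.27 after median-ratio scaling, with adjusted p = 0.25, and it was 0.90, under the fold minimum, without DP replicate 1.

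Papilla cells were set apart by Slc36a2, a proton-coupled carrier of proline and glycine. It had 0 and 0.115 RPKM in DS, 26.1 and 33.3 RPKM in DP, and 1.23 and 2.1 RPKM in DF, with a log2 difference of 3.54 for DP minus DF (SE 0.26, adjusted p = 0.000426) and -4.85 for DS minus DP (SE 0.26, adjusted p = 0.000159). Slc7a7, the light chain that exchanges cationic for neutral amino acids, had 4.42 and 4.61 RPKM in DS, 19.8 and 27.2 RPKM in DP, and 2.01 and 2.6 RPKM in DF. Slc7a7 was higher in DP than in DF by 2.88 (SE 0.23, adjusted p = 0.000568) while DS minus DP was -2.13 (SE 0.23, adjusted p = 0.00169). Its partner, the heavy chain Slc3a2, was not called in any comparison, at 77.4 and 80.6 RPKM in DS, 78.2 and 96.8 RPKM in DP, and 36.9 and 53.8 RPKM in DF. Slc43a2, a carrier of large neutral amino acids, had 4.83 and 8.49 RPKM in DS, 33.3 and 20.03 RPKM in DP, and 2.64 and 1.57 RPKM in DF. Its 3.13 for DP minus DF (SE 0.37, adjusted p = 0.00191) was called, and its -1.85 for DS minus DP (SE 0.37, adjusted p = 0.0156) was called on all 6 libraries but not without DS replicate 1 (adjusted p = 0.0759) or without DP replicate 1 (adjusted p = 0.0887).

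Members highest in fibroblasts included carriers of serine, alanine and proline. Leukocyte and melanocyte markers also summed highest in DF, and their part in these differences was not tested. Slc1a4, which exchanges alanine, serine and cysteine, had 0.0830 and 0.322 RPKM in DS, 1.9 and 1.78 RPKM in DP, and 7.07 and 7.27 RPKM in DF. For Slc1a4 the log2 difference was -2.77 for DS minus DF (SE 0.20, adjusted p = 0.000503) and -1.52 for DP minus DF (SE 0.20, adjusted p = 0.00260). Slc7a10, the light chain for small neutral amino acids, had 0.721 and 0.962 RPKM in DS, 0.721 and 1.84 RPKM in DP, and 7.74 and 5.75 RPKM in DF. For Slc7a10 the log2 difference was -2.06 for DS minus DF (SE 0.31, adjusted p = 0.00481) and -1.80 for DP minus DF (SE 0.31, adjusted p = 0.00568). The proline transporter Slc6a7 passed through DF alone, at 0.258 and 0.518 RPKM in DS, 0 in both DP libraries, and 5.63 and 7.49 RPKM in DF. Slc38a10, of the family of sodium-coupled neutral amino acid carriers, was the second most abundant member in DF, at 20.3 and 22.3 RPKM in DS, 49.4 and 35.1 RPKM in DP, and 101 and 77.9 RPKM in DF. Slc38a10 was called lower in DS than in DF at -2.01 (SE 0.22, adjusted p = 0.00179).

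A glycine carrier was low in the sheath. Slc6a9, the sodium and chloride dependent glycine transporter, had 0.718 and 2.28 RPKM in DS, 7.22 and 11.4 RPKM in DP, and 11 and 11.5 RPKM in DF. For Slc6a9, the log2 difference for DS minus DF was -2.37 (SE 0.37, adjusted p = 0.00578) and DS minus DP was -2.09 (SE 0.37, adjusted p = 0.0103), the second at adjusted p = 0.0639 without DP replicate 2. The glutamate and aspartate transporter Slc1a3 had 9.04 and 10.6 RPKM in DS, 20.1 and 14.7 RPKM in DP, and 26.0 and 37.0 RPKM in DF. Slc1a3 was called lower in DS than in DF at -1.57 (SE 0.25, adjusted p = 0.00598). Slc7a1, the main carrier of arginine and lysine, was low in DP, at 5.34 and 5.7 RPKM in DS, 1.85 and 2.23 RPKM in DP, and 8.73 and 7.52 RPKM in DF. For Slc7a1, DP minus DF was -1.59 (SE 0.20, adjusted p = 0.00218). The large neutral amino acid carrier Slc7a5 could not be placed, since its replicates disagreed, with 1.39 and 23.5 RPKM in DS, 3.71 and 9.45 RPKM in DP, and 5.72 and 5.16 RPKM in DF.

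The glutamine carrier Slc1a5 had 28.4 and 27.1 RPKM in DS, 28.0 and 35.7 RPKM in DP, and 18.8 and 21.3 RPKM in DF. The cystine and glutamate exchanger Slc7a11 had 3.65 and 3.1 RPKM in DS, 6.45 and 5.32 RPKM in DP, and 1.91 and 3.64 RPKM in DF. Neither was called in any comparison. Genes of the amino acid response, a list of 12 with 11 tested, had 4 called lower and 0 higher in DS than in DF and 3 called lower and 0 higher in DP than in DF, by limma with the same threshold and fold minimum, beside 5.95% and 6.87% of all genes called lower. After median-ratio scaling 8 were lower in DS and 6 in DP, beside 9.93% and 13.0% of all genes. One of them, Phgdh, the first enzyme of serine synthesis, stood at 1.93 and 1.55 RPKM in DS, 0.469 and 0.848 RPKM in DP, and 11.5 and 11.2 RPKM in DF.

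Slc16a1 and Slc16a7, monocarboxylate carriers of the SLC16 family, were called lower in DP than in DF. Slc16a1, which carries lactate and pyruvate with protons, had 6.98 and 7.64 RPKM in DS, 0.507 and 0.813 RPKM in DP, and 8.23 and 7.25 RPKM in DF. For Slc16a1 the log2 difference was -2.40 for DP minus DF (SE 0.21, adjusted p = 0.000691) and 2.33 for DS minus DP (SE 0.21, adjusted p = 0.000846). Slc16a7, a lactate and pyruvate carrier of high affinity, was highest in DF, at 3.16 and 1.79 RPKM in DS, 1.13 and 1 RPKM in DP, and 8.84 and 6.94 RPKM in DF. For Slc16a7 the log2 difference was -2.1 for DP minus DF (SE 0.27, adjusted p = 0.00233). The lactate exporter Slc16a3 was not called in any comparison, at 4.55 and 2.29 RPKM in DS, 6.71 and 5.54 RPKM in DP, and 4.11 and 5.46 RPKM in DF.

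Embigin (Emb), an ancillary protein that carries monocarboxylate carriers to the membrane, had 0.830 and 0.216 RPKM in DS, 43.7 and 39.3 RPKM in DP, and 1.09 and 1.53 RPKM in DF. For Emb the log2 difference was 4.2 for DP minus DF (adjusted p = 0.000315). Basigin (Bsg), the other such protein on the list, had 190 and 186 RPKM in DS, 124 and 144 RPKM in DP, and 197 and 179 RPKM in DF. Bsg was not called on the deposited scale. Of the 11 tested genes of lactate and glucose use, 6 were called higher and 0 lower in DS than in DF, beside 20.6% and 5.95% of all genes. In DP 4 were called higher and 0 lower than in DF, beside 31.5% and 6.87%. After median-ratio scaling these were 2 higher and 0 lower in DS, beside 8.01% and 9.93%, and 2 higher and 1 lower in DP, beside 9.33% and 13.0%.

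**Figure D4:**
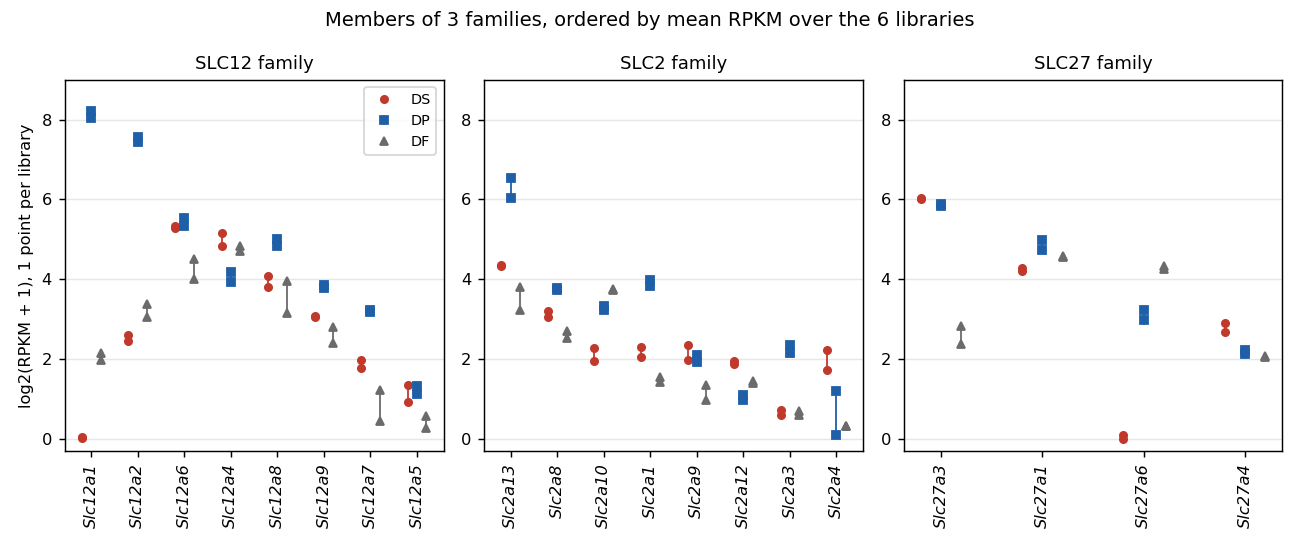
log2(RPKM + 1) in each library (1 point per library, DS, DP and DF from left to right at each gene) for members of the SLC12 (chloride), SLC2 (sugars) and SLC27 (fatty acids) families, ordered by mean RPKM. In the SLC27 panel the DS libraries are the highest for Slc27a3, at 64.5 and 63.6 RPKM, and the lowest for Slc27a6, at 0 and 0.0716 RPKM.

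On the deposited scale, sugar carriers were called higher in DP than in DF at a share near that of all genes. Of 15 members, 5 (33.3%, beside 31.5% of all genes) were called higher and 0 lower (beside 6.87%) in DP than in DF. In DS, 2 were called higher and 1 lower than in DF, beside 20.6% and 5.95%. Between DS and DP, 0 were higher and 5 (33.3%) lower in DS, beside 9.42% and 12.8%. After median-ratio scaling 4 were higher and 2 lower in DP than in DF, beside 9.33% and 13.0%. By that scaling 2 were higher and 2 lower in DS than in DF, beside 8.01% and 9.93%. For DS against DP these were 2 higher and 3 lower, beside 11.5% and 9.81%. The glucose transporter Slc2a1 had 3.15 and 3.95 RPKM in DS, 13.3 and 14.9 RPKM in DP, and 1.92 and 1.68 RPKM in DF. Slc2a1 was higher in DP than in DF by 2.43 (SE 0.20, adjusted p = 0.000631) while DS minus DP was -1.74 (SE 0.20, adjusted p = 0.00227). Slc2a3, a glucose transporter of high affinity, passed through DP alone, at 0.511 and 0.657 RPKM in DS, 4.08 and 3.45 RPKM in DP, and 0.518 and 0.614 RPKM in DF. The member of the class with the highest mean over all 6 libraries, the sugar carrier Slc50a1, was not called on the deposited scale, at 57.0 and 48.4 RPKM in DS, 38.6 and 55.7 RPKM in DP, and 36.0 and 38.9 RPKM in DF.

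Among the 4 fatty acid carriers, which also act as acyl-CoA synthetases, 1 was low in fibroblasts and another was low in the sheath. Slc27a3 had 64.5 and 63.6 RPKM in DS, 58.6 and 56.2 RPKM in DP, and 4.2 and 6.17 RPKM in DF. For Slc27a3 the log2 difference was 3.41 for DS minus DF (SE 0.19, adjusted p = 0.000228) and 3.26 for DP minus DF (SE 0.19, adjusted p = 0.000265). Slc27a6 ran the other way, at 0 and 0.0716 RPKM in DS, 6.83 and 8.46 RPKM in DP, and 19.1 and 18.1 RPKM in DF. For Slc27a6 the log2 difference was -4.24 for DS minus DF (SE 0.20, adjusted p = 0.000144) and -3.06 for DS minus DP (SE 0.20, adjusted p = 0.000309). Its -1.19 for DP minus DF (SE 0.20, adjusted p = 0.00542) was -0.50 when each library was rescaled to the same sum (Mir6236 included), and was then not called.

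The transcript of the iron exporter was highest in the sheath. Slc40a1, ferroportin, through which cells release iron, had 18.5 and 22.8 RPKM in DS, 0.820 and 0.768 RPKM in DP, and 1.71 and 1.64 RPKM in DF. For Slc40a1 the log2 difference was 3.01 for DS minus DF (SE 0.20, adjusted p = 0.000395) and 3.58 for DS minus DP (SE 0.20, adjusted p = 0.000195). Leukocytes also make ferroportin, and their part in its level was not tested. The iron importer Slc11a2 had 8.16 and 10.1 RPKM in DS, 18 and 15.9 RPKM in DP, and 8.62 and 8.04 RPKM in DF. Its 0.94 for DP minus DF (SE 0.19, adjusted p = 0.00891) was under the fold minimum. Of 13 tested genes of iron handling, 1 was called higher and 1 lower in DS than in DF, beside 20.6% and 5.95% of all genes. In DP 5 were called higher and 2 lower than in DF, beside 31.5% and 6.87%. Between DS and DP 3 were higher and 3 lower in DS, beside 9.42% and 12.8%. After median-ratio scaling 1 was higher and 3 were lower in DP than in DF, beside 9.33% and 13.0% of all genes. The other counts were the same, beside 8.01% and 9.93% for DS against DF and 11.5% and 9.81% for DS against DP.

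Ferritin heavy chain (Fth1), which stores iron, had 4330 and 4167 RPKM in DS, 1586 and 1653 RPKM in DP, and 706 and 737 RPKM in DF. For Fth1 the log2 difference was 2.56 for DS minus DF (adjusted p = 0.000125). Of the ferroxidases listed, hephaestin and ceruloplasmin, which work with ferroportin, were instead called lower in DS than in DP. Hephl1, also on the list, was not called in any comparison. Hephaestin (Heph) had 2 and 1.68 RPKM in DS, 17 and 16.7 RPKM in DP, and 1.08 and 1.64 RPKM in DF. Ceruloplasmin (Cp) had 2.05 and 1.45 RPKM in DS, 65.9 and 76.7 RPKM in DP, and 25.6 and 42.1 RPKM in DF. DS minus DP was -2.65 for Heph (adjusted p = 0.000618) and -4.72 for Cp (adjusted p = 0.000223). Between DS and DF, Heph was not called, at 0.28 (adjusted p = 0.332).

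The magnesium carriers Slc41a2 and Slc41a3 had uneven replicates. Slc41a2 had 2.32 and 0.263 RPKM in DS, 1.73 and 1.32 RPKM in DP, and 7.63 and 8.62 RPKM in DF. Its -2.15 for DS minus DF (SE 0.46, adjusted p = 0.0151) lost its call without either DF library, at adjusted p = 0.0742 without replicate 1 and 0.0673 without replicate 2. Slc41a3 had 106 and 54.1 RPKM in DS, 29.0 and 18.6 RPKM in DP, and 69.1 and 45.7 RPKM in DF. Its 1.66 for DS minus DP (SE 0.40, adjusted p = 0.0274) was not called without DS replicate 1 (adjusted p = 0.105) or without either DP library (adjusted p = 0.0649 and 0.132).

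Of 17 zinc carriers, 1 was called higher and 0 lower in DS than in DF, beside 20.6% and 5.95% of all genes. In DP, 5 (29.4%, 1 through DP alone) were called higher and 1 lower than in DF, beside 31.5% and 6.87%. Between DS and DP, 2 were higher and 1 lower in DS, beside 9.42% and 12.8%. Median-ratio scaling left 1 higher and 3 lower in DP than in DF, beside 9.33% and 13.0% of all genes. Slc39a8, which imports zinc, manganese and iron, had 7.27 and 7.94 RPKM in DS, 1.5 and 1.72 RPKM in DP, and 0.958 and 1.69 RPKM in DF. For Slc39a8 the log2 difference was 1.9 for DS minus DF (SE 0.23, adjusted p = 0.00259) and 1.72 for DS minus DP (SE 0.23, adjusted p = 0.00389). Slc39a13, a carrier of the secretory pathway whose loss in mice disturbs connective tissue, had 71.0 and 79.9 RPKM in DS, 27.6 and 31.0 RPKM in DP, and 66.8 and 67.1 RPKM in DF. Slc39a13 was lower in DP than in DF at -1.17 (SE 0.14, adjusted p = 0.00182), which was -0.46 and not called when libraries were rescaled to the same sum (Mir6236 included). Slc39a14, a plasma membrane importer of zinc, iron and manganese, had 32.1 and 35.7 RPKM in DS, 52.2 and 54.3 RPKM in DP, and 22.8 and 19.3 RPKM in DF. Its 1.30 for DP minus DF (SE 0.15, adjusted p = 0.00172) was 0.48 and not called after median-ratio scaling.

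The zinc exporter Slc30a1 was not called, at 6.74 and 7.71 RPKM in DS, 6.49 and 9.01 RPKM in DP, and 4.04 and 3.38 RPKM in DF. Slc30a2, which fills vesicles with zinc, passed through DP alone, at 0.0671 and 0.380 RPKM in DS, 4.07 and 4.66 RPKM in DP, and 0.111 and 0.0131 RPKM in DF. The metallothioneins Mt1 and Mt2, which bind zinc and copper, were higher in DF. Mt1 had 29.6 and 63.6 RPKM in DS, 45.1 and 70.5 RPKM in DP, and 270.2 and 291 RPKM in DF. For Mt1 the log2 difference was -2.66 for DS minus DF (adjusted p = 0.00453) and -2.29 for DP minus DF (adjusted p = 0.00554).

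Several calcium exchangers were highest in the sheath. Of the 6 members that exchange sodium for calcium, 4 (66.7%, beside 20.6% of all genes) were called higher and 0 lower in DS than in DF. Of the 4, 1 (Slc24a1) passed through DS alone. In DP, 2 (33.3%, beside 31.5% of all genes) were called higher and 0 lower than in DF. Between DS and DP, 2 were higher and 2 lower in DS, beside 9.42% and 12.8% of all genes. Median-ratio scaling left 2 higher and 1 lower in DS than in DF, beside 8.01% and 9.93% of all genes. It left none in DP against DF, and 3 higher and 2 lower in DS than in DP, beside 11.5% and 9.81%. Slc8a3, an exchanger of the plasma membrane, had 13.2 and 20.7 RPKM in DS, 1.91 and 1.83 RPKM in DP, and 0.963 and 1.73 RPKM in DF. For Slc8a3 the log2 difference was 2.92 for DS minus DF (SE 0.29, adjusted p = 0.00137) and 2.61 for DS minus DP (SE 0.29, adjusted p = 0.00194). Slc8a1, the exchanger best known from the heart, had 6.09 and 6.76 RPKM in DS, 2.76 and 2.72 RPKM in DP, and 2.32 and 2.33 RPKM in DF. Its 1.16 for DS minus DF (SE 0.19, adjusted p = 0.00617) was 0.67 after median-ratio scaling, with adjusted p = 0.0511.

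Slc8b1, the sodium and calcium exchanger of mitochondria, ran opposite to these, at 18.3 and 17 RPKM in DS, 59.5 and 87.5 RPKM in DP, and 23.2 and 26.2 RPKM in DF. DS minus DP was -1.97 (SE 0.22, adjusted p = 0.00175), and the 1.51 for DP minus DF (SE 0.22, adjusted p = 0.00331) was 0.68 and not called after median-ratio scaling. Slc24a1, an exchanger of the eye's rods, passed through DS alone, at 2.08 and 1.67 RPKM in DS, 0.0242 and 0.153 RPKM in DP, and 0.130 and 0.153 RPKM in DF. Slc24a5, best known from melanocytes, was highest in DP, with 0.328 and 0.276 RPKM in DS, 4.39 and 4.40 RPKM in DP, and 0.623 and 1.95 RPKM in DF. Of the 5 melanocyte markers, Tyr was also highest in DP, at 2.01 and 1.48 RPKM in DS, 5.66 and 3.83 RPKM in DP, and 1.39 and 2.74 RPKM in DF, and was called lower in DS than in DP. The other 4 were highest in DF, and the part of melanocytes in the level of Slc24a5 was not tested.

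The carnitine carrier was highest in the sheath and another gene of its family in the papilla. Slc22a5, which brings in carnitine, had 12.5 and 11 RPKM in DS, 3.16 and 1.70 RPKM in DP, and 3.32 and 3.98 RPKM in DF. For Slc22a5 the log2 difference was 1.93 for DS minus DP (SE 0.27, adjusted p = 0.00434). Its 1.46 for DS minus DF (SE 0.27, adjusted p = 0.00954) was 0.93 and not called after median-ratio scaling, and had an adjusted p of 0.0548 without DS replicate 1 and 0.0557 without DF replicate 1. Slc22a4, which carries ergothioneine, had 1.39 and 0.327 RPKM in DS, 16.8 and 16.7 RPKM in DP, and 1.51 and 1.27 RPKM in DF. For Slc22a4 the log2 difference was 2.89 for DP minus DF (SE 0.31, adjusted p = 0.00143) and -3.32 for DS minus DP (SE 0.31, adjusted p = 0.00104). These genes and Slc22a21 are close copies on chromosome 11, so reads may have been split between them.

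The sodium and phosphate cotransporters also differed. Slc20a1 had 12.7 and 11.3 RPKM in DS, 30.5 and 31.6 RPKM in DP, and 7.66 and 11.5 RPKM in DF. Slc20a1 was called higher in DP than in DF by 1.63 (SE 0.22, adjusted p = 0.00285), or 0.83 and not called after median-ratio scaling. Slc20a2 had 19.5 and 15.9 RPKM in DS, 9.58 and 9.998 RPKM in DP, and 2.79 and 4 RPKM in DF. Slc20a2 was called higher in DS than in DF by 2.1 (SE 0.22, adjusted p = 0.00159). The sulfate carrier Slc26a2, whose loss disturbs proteoglycan sulfation in cartilage, was not called on the deposited scale, at 4.09 and 5.73 RPKM in DS, 6.89 and 7.16 RPKM in DP, and 7.48 and 7.57 RPKM in DF.

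Among the 5 nucleoside carriers, Slc29a1, the main equilibrative transporter of the plasma membrane, had 36.4 and 43.8 RPKM in DS, 111 and 99.0 RPKM in DP, and 28.0 and 26.4 RPKM in DF. Slc29a1 was higher in DP than in DF by 1.91 (SE 0.15, adjusted p = 0.000565) while DS minus DP was -1.37 (SE 0.15, adjusted p = 0.00189). Slc29a3, which works in lysosomes, ran the other way between the follicle populations, at 27.3 and 32.7 RPKM in DS, 11.1 and 12.3 RPKM in DP, and 21.6 and 18.5 RPKM in DF. For Slc29a3 the log2 difference was 1.285 for DS minus DP (SE 0.18, adjusted p = 0.00405). The choline transporter Slc44a1, with the highest mean over all 6 libraries among the 11 vitamin and choline carriers, was not called on the deposited scale, at 60.2 and 56.0 RPKM in DS, 34.1 and 33.4 RPKM in DP, and 45.4 and 50.3 RPKM in DF.

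The most abundant member in DF, Slc10a7, of the bile acid carrier family, had unlike replicates, at 36.1 and 10.2 RPKM in DS, 54.0 and 30.1 RPKM in DP, and 127 and 73.0 RPKM in DF. Its -2.25 for DS minus DF (SE 0.63, adjusted p = 0.0337) was not called when DS replicate 2, either DP library or either DF library was left out, at adjusted p between 0.0576 and 0.177. Slc10a6, which carries sulfated steroids, had 4.46 and 2.77 RPKM in DS, 3.58 and 2.71 RPKM in DP, and 8.81 and 9.39 RPKM in DF. For Slc10a6 the log2 difference was -1.15 for DS minus DF (SE 0.26, adjusted p = 0.0172) and -1.29 for DP minus DF (SE 0.26, adjusted p = 0.00914). Leaving out DS replicate 2, DF replicate 1 or DF replicate 2 put the adjusted p of the first between 0.0614 and 0.0812, and leaving out DP replicate 2 put that of the second at 0.0530.

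Mitochondrial carriers differed little beyond the shift of the whole table. Of 40 members, 6 (15%, beside 20.6% of all genes) were called higher and 1 (2.5%, beside 5.95%) lower in DS than in DF. In DP, 12 (30%, beside 31.5%) were called higher and 0 (beside 6.87%) lower than in DF. After median-ratio scaling 0 were higher and 1 lower in DS, beside 8.01% and 9.93% of all genes, and 2 higher and 3 lower in DP, beside 9.33% and 13.0%. Slc25a3, which supplies phosphate for ATP synthesis, was among the most abundant members everywhere, at 140.01 and 142.5 RPKM in DS, 138 and 138 RPKM in DP, and 87.0 and 83.7 RPKM in DF, with no call. Slc25a4, the exchanger of ADP and ATP best known from muscle, had 136 and 142 RPKM in DS, 53.3 and 60.4 RPKM in DP, and 48.7 and 46.9 RPKM in DF. It was called higher in DS than in DP, at 1.27 (SE 0.13, adjusted p = 0.00129), and its 1.52 for DS minus DF (SE 0.13, adjusted p = 0.000782) was 0.89 and not called after median-ratio scaling. Its widely expressed homologue Slc25a5 was not called, at 59.9 and 66.2 RPKM in DS, 47.1 and 66.5 RPKM in DP, and 38.2 and 34.3 RPKM in DF.

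The 14 carriers of nucleotide sugars and other donors of the ER and Golgi had few calls. In DS 1 was called higher and 0 lower than in DF, beside 20.6% and 5.95% of all genes. In DP 3 were called higher and 0 lower than in DF, beside 31.5% and 6.87%. Between DS and DP 0 were higher and 2 lower in DS, beside 9.42% and 12.8%. Median-ratio scaling left 0 higher and 3 lower in DS than in DF, beside 8.01% and 9.93%. It left 0 higher and 2 lower in DP than in DF, beside 9.33% and 13.0%, and 0 higher and 1 lower in DS than in DP, beside 11.5% and 9.81%. Among the 8 members with no clear substrate, Slc35e4 was low in DF, at 6.89 and 8.50 RPKM in DS, 4.05 and 5.37 RPKM in DP, and 0.563 and 0.603 RPKM in DF. For Slc35e4 the log2 difference was 2.45 for DS minus DF (SE 0.22, adjusted p = 0.000989) and 1.84 for DP minus DF (SE 0.22, adjusted p = 0.00198). Of 6 symbols that name no transporter, the scaffold Slc9a3r2 had 39.8 and 37.0 RPKM in DS, 6.81 and 14.1 RPKM in DP, and 12.4 and 12.1 RPKM in DF. Its 1.57 for DS minus DF (SE 0.32, adjusted p = 0.0131) was 0.96 and not called after median-ratio scaling, and had an adjusted p between 0.0557 and 0.0692 with any 1 of the DS and DF libraries left out.

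Solute carriers whose symbols do not start with Slc were outside the rule and were read from a list of 40 genes, 24 of them tested. Of the 24, 3 were called higher and 0 lower in DS than in DF, beside 20.6% and 5.95% of all genes. In DP 4 were called higher and 3 lower than in DF, beside 31.5% and 6.87%. Between DS and DP 3 were higher and 2 lower in DS, beside 9.42% and 12.8%. After median-ratio scaling 1 was higher and 1 lower in DS than in DF, beside 8.01% and 9.93% of all genes. By that scaling 1 was higher and 4 lower in DP than in DF, beside 9.33% and 13.0%. For DS against DP these were 3 higher and 1 lower, beside 11.5% and 9.81%. The prostaglandin transporter Slco2a1 had 117 and 106 RPKM in DS, 1.56 and 1.52 RPKM in DP, and 6.08 and 4.44 RPKM in DF. For Slco2a1 the log2 difference was 4.18 for DS minus DF (adjusted p = 0.000147) and 5.47 for DS minus DP (adjusted p = 6.29e-05). Slco2b1, a carrier of organic anions, was low in DP alone, at 23.6 and 20.4 RPKM in DS, 0.450 and 0.132 RPKM in DP, and 36.4 and 38.7 RPKM in DF. For Slco2b1 the log2 difference was -4.91 for DP minus DF (adjusted p = 0.000117).

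At the threshold itself, the members just inside were the mitochondrial carrier Slc25a18, the overlapping transcript Slc36a1os, the vitamin C family member Slc23a3 and the organic cation carrier Slc22a2, whose second-highest libraries stood at 1.01, 1.03, 1.05 and 1.05 RPKM. No symbol lay within 0.05 RPKM below the threshold, and the closest outside were Slc22a13b at 0.932 RPKM, Slc45a3 at 0.914 RPKM and the peptide carrier Slc15a3 at 0.906 RPKM.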

How the data were processed

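The authors deposited RPKM per gene in 1 table, where each of the 6 libraries has its own column. Named in the submitters' processing notes, without a role, are Salmon 1.9.0, DESeq2 1.28.1 and GRCm39. The sources used here give no filters, read totals or strand. Overlapping genes such as Slc7a6 and Slc7a6os therefore cannot be told apart. Ratios of low values between libraries clustered at more than 1 ratio, so relative depth was not set and no counting intervals are given. The members, substrate classes and gene lists were chosen with earlier results of these data known, and support nothing beyond the values given.

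Values were analysed as log2(RPKM + 1), a scale that understates differences of low genes, over the 14664 genes that reached 1 RPKM in 2 libraries or more. A linear model with 1 mean for each population was fitted to all 6 libraries (limma 3.58.1, R 4.3.3). Its eBayes step used a trend and had 2.62 prior beside 3 residual degrees of freedom. Tests were two-sided with Benjamini-Hochberg adjustment over all genes of a comparison, and SE values come from that fit. With 2 libraries against 2, an exact permutation test of 1 gene cannot go below 0.333, so calls rest on the spread pooled over genes. Simulated data with known changes were used to test the procedure. The labels call the replicates biological.

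Members were named by these rules. In each comparison and direction they were the 10 called members with the largest difference, given no overlap and a mean of at least 5 RPKM where higher. Added were the most abundant member of each class, up to 10 members highest in each population, 24 focal members and those within 0.05 RPKM of the threshold. Not every member so picked is described, and some genes are not reported here. Slc24a5, and the genes named from other lists, were chosen after their values were seen. Promoters were matched by symbol.

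Each choice was changed alone. The alternatives were a pseudocount of 0.1, 3 other filters on low values, median-ratio scaling, rescaling to the same sum, no trend in eBayes, only the 2 populations compared, a replicate block, no fold minimum and leaving out each library.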

Additional observations from a re-analysis of the deposited data

How the results depend on the processing

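The counts moved with the scaling, the filter on low values and the fold minimum. For settings in this section other than median-ratio scaling, shares over all genes are not given here. Counts under those settings therefore show how the calls move and are no result about the members. Rescaling each library to the same sum gave 66 members higher and 14 lower in DS than in DF, and 115 higher and 7 lower in DP than in DF. That sum includes Mir6236, which held between 46.6% and 77.1% of each library, with the largest shares in DF. This setting therefore depends on the share of 1 gene. Median-ratio scaling gave 14 higher and 38 lower in DS than in DF, beside 8.01% and 9.93% of all genes. It gave 27 higher and 46 lower in DP than in DF, beside 9.33% and 13.0%, and 25 higher in DS than in DP, beside 11.5%. Without a filter on low values 15 members were lower in DS than in DF, and without a fold minimum 67 were higher in DS than in DF, 30 lower in DP than in DF and 31 higher in DS than in DP. Leaving out 1 library in turn gave 22 to 40 higher and 16 to 23 lower in DS than in DF, 58 to 81 higher and 13 to 17 lower in DP than in DF, and 13 to 18 higher and 29 to 40 lower in DS than in DP.

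Same-numbered replicates did not deviate together (correlations of -0.03 for DS and DP, -0.07 for DS and DF and -0.05 for DP and DF). No shared shift was therefore seen, but these correlations cannot exclude that same-numbered libraries share animals or a sort. A fit with the replicate block called 29 higher and 23 lower in DS than in DF, 73 higher and 17 lower in DP than in DF, and 17 higher and 41 lower in DS than in DP. Of 107 calls among 204 pairs of a named member and a comparison, 96 remained after median-ratio scaling, 95 after rescaling to the same sum, 94 without a filter, 106 with the replicate block and 96 to 99 with 1 library left out, and none changed direction under these settings. The spread rests on 2 libraries per population, and the read depth behind the values is unknown.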

Other observations

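Sulfotransferases use the sulfate that carriers bring in, and the 14 listed genes of sulfation were all tested. In DS 6 were called higher and 0 lower than in DF, beside 20.6% and 5.95% of all genes. In DP 7 were called higher and 1 lower than in DF, beside 31.5% and 6.87%. Between DS and DP 2 were higher and 2 lower in DS, beside 9.42% and 12.8%. After median-ratio scaling 4 were higher and 1 lower in DS than in DF, beside 8.01% and 9.93% of all genes. For DP against DF these were 3 and 1, beside 9.33% and 13.0%. Chst15, which adds sulfate to chondroitin chains, had 39.2 and 37.7 RPKM in DS, 56.3 and 52.6 RPKM in DP, and 0.551 and 1.47 RPKM in DF, with a log2 difference of 4.33 for DS minus DF (adjusted p = 0.000257) and 4.82 for DP minus DF (adjusted p = 0.000199). Hs6st1, which sulfates heparan chains, was highest in DS, at 45.6 and 39.5 RPKM in DS, 5.90 and 6.83 RPKM in DP, and 5.34 and 5.05 RPKM in DF, with 2.81 for DS minus DF (adjusted p = 0.000327) and 2.56 for DS minus DP (adjusted p = 0.000365).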
